A study of Mus musculus with 12 samples.

Results

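The small proline-rich proteins, encoded by the Sprr genes, were followed here through 9 genes chosen by name, Sprr1a, Sprr1b, Sprr2b, Sprr2d, Sprr2e, Sprr2f, Sprr2g, Sprr2h and Sprr3, out of 43346 genes in the deposited table. They were proposed with earlier results of the same comparison known, so their levels in HP-AKI and sham kidneys are given as a description, without a test. Whole-kidney mRNA of mice was sequenced in 6 libraries of the HP-AKI group (libraries 7, 8, 9, 11, 12 and 13), taken 1 day after HP-AKI, and in 6 libraries of the sham group (libraries 1 to 6), taken 1 day after sham. The labels use HP-AKI, a form of acute kidney injury (AKI), without writing HP in full. Strain, sex, age and agent are not given in the sources used here, and nothing says that the libraries come from separate animals, so p-values measure the spread between libraries, which may be technical.

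Small proline-rich proteins are short proteins, rich in proline, glutamine and cysteine, that transglutaminases cross-link into the cornified envelope beneath the plasma membrane of skin and other stratified epithelia. Their genes lie together in the epidermal differentiation complex, beside the involucrin, loricrin and filaggrin genes and many S100 genes. Outside the skin they are known as stress-induced genes of simple epithelia. In biliary epithelium Sprr2 genes respond to IL-6 acting through STAT3, and Sprr1a is induced in injured neurons.

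The libraries held 31624522 to 40630917 counts in HP-AKI and 35201197 to 41951129 in sham. Lrp2, Slc34a1, Umod, Slc12a3 and Aqp2, which mark tubule and collecting duct segments of the kidney, were detected in every library. In CPM (counts scaled to a common library size), Umod averaged 4950 ± 744 in HP-AKI and 4153 ± 407 in sham, and the proximal tubule gene Lrp2 averaged 497 ± 38.3 in HP-AKI and 3740 ± 343 in sham (SD, n = 6 each). The second principal component of the log2 CPM values held 8.92% of the variance. HP-AKI 8, sham 2 and sham 1 stood lowest on it, at -39.4, -37.95 and -25.7. HP-AKI 9 followed at -14.5, and the others lay at 2.29 or above. The folds of Sprr2f, Sprr2g, Sprr1a and Sprr2h are therefore also given without the 3 lowest libraries. HP-AKI 9 was left out only singly.

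The family as listed in the table comprised 17 rows on chromosome 3 of GRCm38 within 284.7 kb, of which 8 are not among the 9 members. The 250 bases before the transcription start are printed for 4 members, from RefSeq on GRCm38.p6, to set the promoter of an abundant gene beside that of a relative with almost no reads. Sprr2f and Sprr2e are neighbours on the forward strand with promoters 80.6% identical over 237 aligned bases, and Sprr1a and Sprr1b lie on the reverse strand. Capitals mark matches to the AP-1 motif TGANTCA and to the octamer motif ATTTGCAT, searched on both strands. The windows are chr3:92364937-92365186 for Sprr2f, chr3:92351893-92352142 for Sprr2e, chr3:92485882-92486131 for Sprr1a and chr3:92438780-92439029 for Sprr1b.
Sprr2f: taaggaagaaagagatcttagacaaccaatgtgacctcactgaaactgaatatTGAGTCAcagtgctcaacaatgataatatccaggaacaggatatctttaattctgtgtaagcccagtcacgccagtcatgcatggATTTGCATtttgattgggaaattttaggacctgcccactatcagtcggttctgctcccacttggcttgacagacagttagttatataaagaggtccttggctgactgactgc
Sprr2e: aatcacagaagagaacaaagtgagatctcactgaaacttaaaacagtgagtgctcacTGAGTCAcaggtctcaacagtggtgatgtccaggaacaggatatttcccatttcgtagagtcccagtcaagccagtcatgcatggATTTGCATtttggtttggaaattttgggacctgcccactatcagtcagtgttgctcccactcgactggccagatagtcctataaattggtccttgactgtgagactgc
Sprr1a: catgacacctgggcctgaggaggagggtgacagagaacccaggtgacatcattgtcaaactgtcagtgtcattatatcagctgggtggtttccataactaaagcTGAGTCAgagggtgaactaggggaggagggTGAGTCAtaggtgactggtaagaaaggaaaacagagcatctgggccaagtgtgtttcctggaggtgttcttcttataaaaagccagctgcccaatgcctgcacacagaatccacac
Sprr1b: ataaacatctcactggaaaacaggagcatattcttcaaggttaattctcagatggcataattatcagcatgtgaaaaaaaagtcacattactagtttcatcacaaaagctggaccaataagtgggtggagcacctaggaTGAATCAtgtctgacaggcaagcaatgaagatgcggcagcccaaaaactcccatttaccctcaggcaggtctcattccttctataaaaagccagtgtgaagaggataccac

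The RefSeq table held promoters of 8 of the 9 members, without Sprr2g. An AP-1 match stood in 7 of these 8, against 6.75% of 32851 windows of the same length. The first base of the match lay 193 to 198 bases before the start in Sprr2b, Sprr2d, Sprr2e, Sprr2f and Sprr2h, and Sprr1a held 2 matches, at 146 and 116 bases. The octamer match, present in 1.6% of all windows, stood in the same 5 Sprr2 members at 108 to 112 bases before the start. Sprr1a held no octamer match. The ETS core CAGGAA, also searched on both strands, stood in 5 of the 8 member promoters, those of Sprr2d, Sprr2e, Sprr2f, Sprr2h and Sprr1a, against 25.7% of all windows, and is not marked in the printed sequences. Sprr2f, with a mean of 20.1 CPM in HP-AKI, and Sprr2e, with 0.0454 CPM, both held all 3 motifs. The motifs were selected with the sequences in view, and a match is a description of the letters only.

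Of the 14157 counts of the 9 members in HP-AKI, 99.5% came from Sprr2g, Sprr2f and Sprr1a. These 3 passed the filter on low counts and the other 6 did not. All HP-AKI values lay above all sham values in each of the 3, a pattern found in 26.7% of the 17470 genes that passed the filter. Of those genes, 72.8% were called by edgeR at an adjusted p of 0.05, 37.7% higher in HP-AKI and 35.1% lower. As the members were chosen with this comparison known, nothing is read from their count, and Sprr2f and Sprr2g passed the filter through the HP-AKI libraries, so they had to differ.

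Sprr2f (ENSMUSG00000050635, chromosome 3, 92365187 to 92366442, protein-coding) encodes a member of the SPRR2 group, small cross-linked precursors of the cornified envelope. It had 397, 1004, 1254, 871, 218 and 735 counts in HP-AKI 7, 8, 9, 11, 12 and 13, against 0 counts in each of the 6 sham libraries. The groups did not overlap, with HP-AKI 8 and 9 high and HP-AKI 7 and 12 low. In CPM, scaled with trimmed-mean-of-M-values (TMM) factors, it averaged 20.1 ± 9.69 (SD, n = 6) in HP-AKI, while the absence of sham reads allows up to 0.0137 CPM, or 3 counts in the pooled sham libraries. This made it at least 1481-fold higher in HP-AKI, with bounds of 1204 to 1678 when any single library was left out and 951 without HP-AKI 8, sham 1 and sham 2.

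Sprr2g (ENSMUSG00000046203, chromosome 3, 92373915 to 92375229) is the next gene downstream, 7473 bases beyond the end of Sprr2f. The deposited table lists it as a polymorphic pseudogene, and it was the most abundant family transcript in HP-AKI. It had 785, 1526, 1400, 1092, 651 and 1153 counts in HP-AKI 7, 8, 9, 11, 12 and 13, against 2, 1, 5, 6, 6 and 9 counts in sham 1 to 6. The groups did not overlap. In CPM, HP-AKI 8 was the highest at 44.4 and HP-AKI 12 the lowest at 18.4. Its mean was 30.1 ± 9.64 CPM in HP-AKI and 0.128 ± 0.0703 CPM in sham (SD, n = 6 each), a ratio of group CPM of 226. That ratio ran from 198.8 to 266 when single libraries were left out and was 160.5 without HP-AKI 8, sham 1 and sham 2.

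Sprr1a (ENSMUSG00000050359, chromosome 3, 92483952 to 92485895, protein-coding) encodes another cross-linked envelope precursor. It was the member with a clear level in sham. Its CPM was 15.4, 15.3, 12.3, 13.7, 10.1 and 15.3 in HP-AKI 7, 8, 9, 11, 12 and 13, against 2.68, 1.73, 1.54, 2.27, 2.98 and 3.56 in sham 1 to 6. HP-AKI 12 was again the lowest of its group, and the groups did not overlap. The mean was 13.7 ± 2.15 CPM in HP-AKI and 2.46 ± 0.769 CPM in sham (SD, n = 6 each), a ratio of group CPM of 5.47 and a fitted log2 fold change of 2.47 ± 0.19 (SE). The ratio ran from 5.07 to 6.08 when single libraries were left out and was 5.098 without HP-AKI 8, sham 1 and sham 2. In a bulk sample a change in the number of cells that hold a transcript and a change in its amount per cell cannot be told apart.

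**Figure D1:**
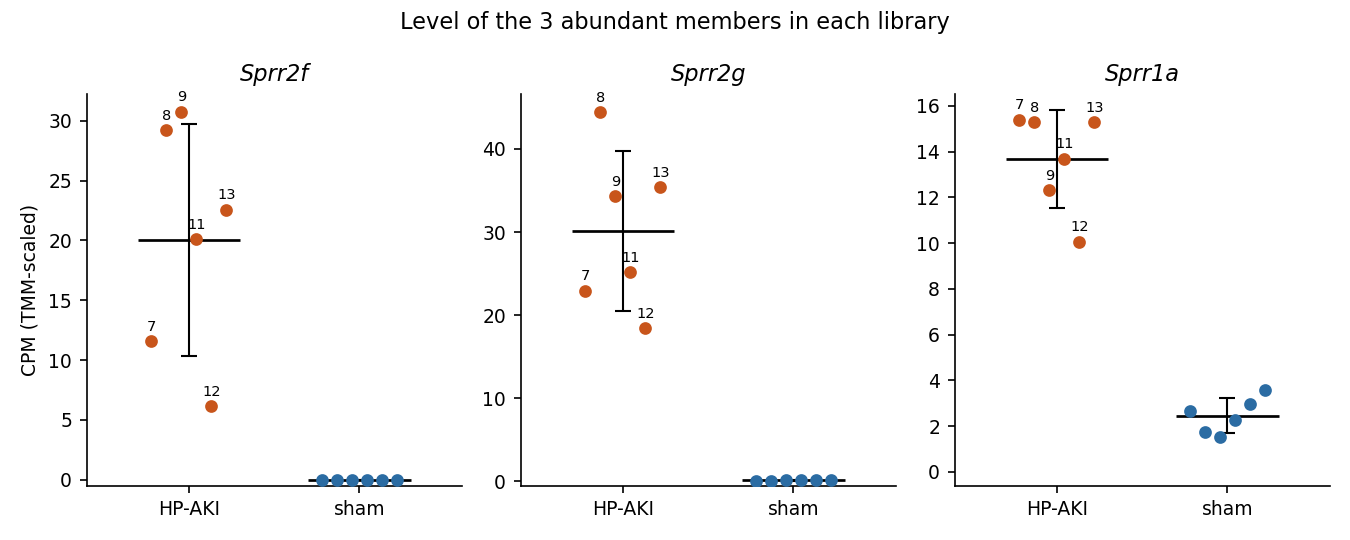
Level of Sprr2f, Sprr2g and Sprr1a in CPM (vertical axes, linear) in each of the 6 HP-AKI and 6 sham libraries, with points for libraries, numbers for the HP-AKI libraries and bars for mean and SD. No HP-AKI point reaches down to a sham point, and HP-AKI 12 is the lowest HP-AKI library in all 3 panels.

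Sprr2h, Sprr2d and Sprr2e, SPRR2 genes that flank the abundant pair, had reads in HP-AKI and none in sham, at levels far below their neighbours. Sprr2h had 6, 11, 15, 4, 6 and 3 counts in HP-AKI 7, 8, 9, 11, 12 and 13, against 0 counts in every sham library, at least 14.9-fold higher over the groups. That bound was 9.31 without HP-AKI 8, sham 1 and sham 2. Sprr2d had 13 counts spread over all 6 HP-AKI libraries, against 0 in sham, and Sprr2e had 10 counts in 4 HP-AKI libraries, against 0 in sham. Their folds were at least 4.30 and at least 3.31, resting on 1 to 4 counts in each library with a read. For Sprr2e the bound fell to 2.35 when the least favourable single library was left out. Sprr2b was at the limit of detection, with 1 count in the HP-AKI group and 3 counts in the sham group. Sprr1b and Sprr3, envelope precursors of stratified epithelia, had 0 counts in both groups, so no level above the 3-count floor was detectable at this depth.

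Per kilobase of the listed gene length, the order in HP-AKI was Sprr2g at 46.3 ± 14.8, Sprr2f at 32.96 ± 15.9 and Sprr1a at 16.97 ± 2.67 CPM per kilobase (SD, n = 6), followed by Sprr2h at 0.270, Sprr2d at 0.0899 and Sprr2e at 0.0701. Sprr2g stood above Sprr2f in 6 of 6 HP-AKI libraries, although their ranges overlapped. Sprr2f stood above Sprr1a in only 4 of 6, so these neighbours in the order were not separated in every library. Sprr2d stood above Sprr2e in 3 of 6. In sham the order began with Sprr1a at 3.05 ± 0.954, followed by Sprr2g at 0.196 ± 0.108 CPM per kilobase (SD, n = 6 each).

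**Figure D2:**
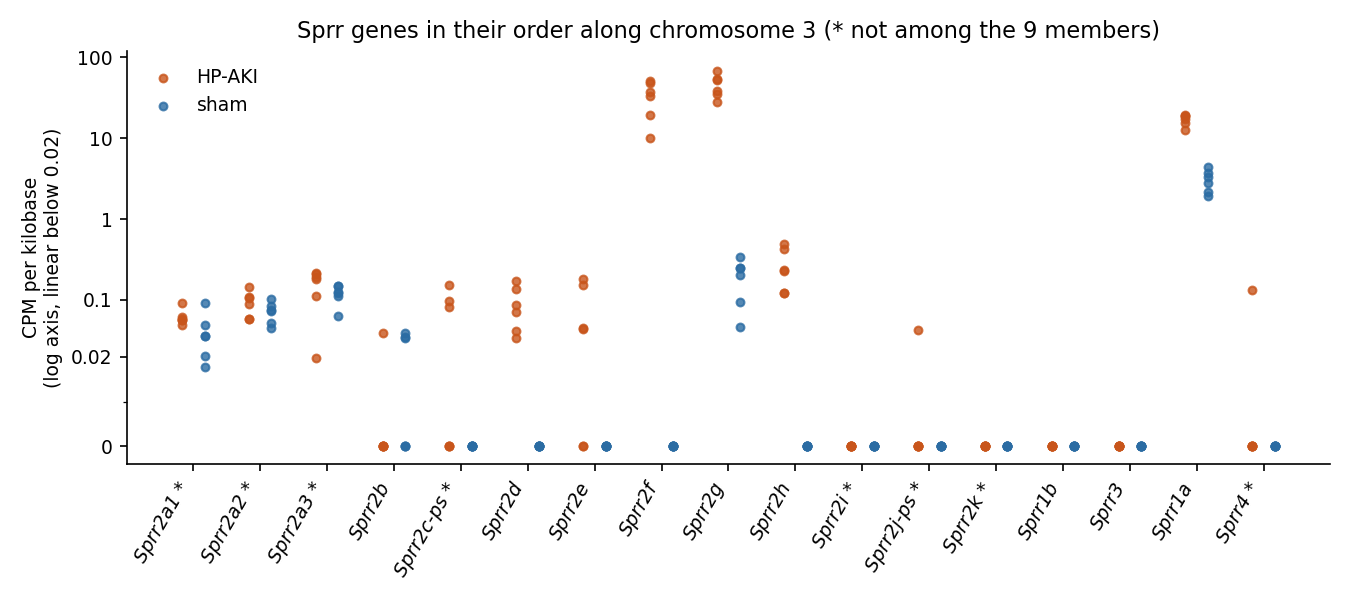
CPM per kilobase (vertical axis, logarithmic, linear below 0.02) of the 17 Sprr rows in their order along chromosome 3, with 1 point per library, HP-AKI left of sham for each gene. Sprr2f and Sprr2g stand side by side at 10.1 to 68.3 CPM per kilobase in HP-AKI, while their neighbours Sprr2e and Sprr2h stay between 0 and 0.489.

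The makeup of the family's reads differed between the groups. Sprr1a supplied 15.8% to 30.7% of the member counts in HP-AKI libraries, against 92.1% to 97.8% in sham libraries. The summed level of the 9 members was 50.2, 89.5, 77.9, 59.1, 34.9 and 73.5 CPM in HP-AKI 7, 8, 9, 11, 12 and 13, against 2.74, 1.79, 1.67, 2.46, 3.17 and 3.78 CPM in sham 1 to 6. The mean of the sum was 64.2 CPM in HP-AKI and 2.60 CPM in sham, a ratio of 24.7, and even the lowest HP-AKI sum lay above every sham sum.

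The members also varied unequally among the HP-AKI libraries. The highest library exceeded the lowest 4.99-fold for Sprr2f, 2.42-fold for Sprr2g (whose range was 18.4 to 44.4 CPM) and 1.53-fold for Sprr1a. The share of Sprr2f in the combined Sprr2f and Sprr2g counts was 33.6% (30.9 to 36.4) in HP-AKI 7, 39.7% (37.8 to 41.6) in HP-AKI 8 and 47.2% (45.3 to 49.2) in HP-AKI 9. It was 44.4% (42.2 to 46.6) in HP-AKI 11, 25.1% (22.2 to 28.1) in HP-AKI 12 and 38.9% (36.7 to 41.2) in HP-AKI 13, with exact 95% binomial intervals that cover counting error only. The interval of HP-AKI 12 overlapped none of the others, so the balance of the pair varied beyond counting error. The relations that follow were chosen after the values were seen, so their p-values are a description only. Over the 6 HP-AKI libraries Sprr2f and Sprr2g gave a Pearson r of 0.885 (exact permutation p = 0.0194, adjusted 0.0486 over 5 relations) and a Spearman rho of 0.829 (exact permutation p = 0.0583, adjusted 0.146). Without HP-AKI 12 and 7, the libraries farthest from the Sprr2f median, r was 0.690 over 4 libraries. The combined pair and Sprr1a gave an r of 0.475 (exact permutation p = 0.336, adjusted 0.422) and a rho of 0.143 (exact permutation p = 0.803, adjusted 0.803), and without HP-AKI 12 and 8 the r was -0.60.

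**Figure D3:**
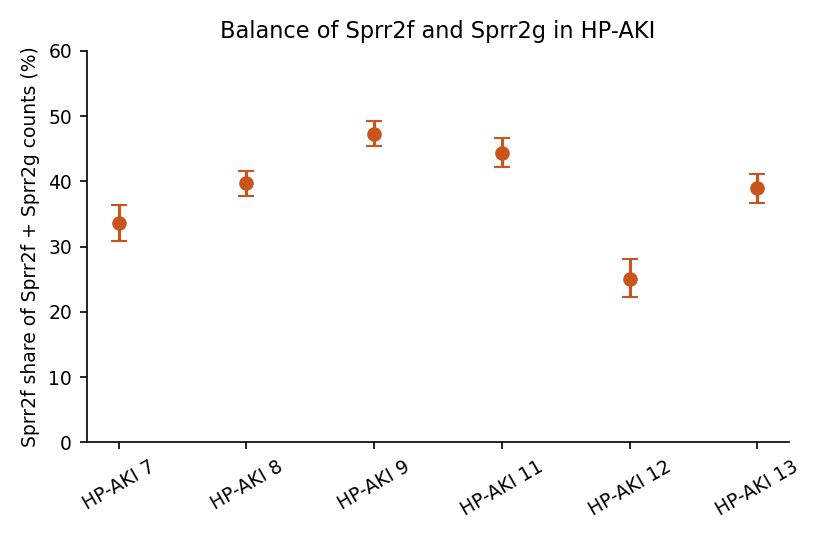
Share of Sprr2f in the combined Sprr2f and Sprr2g counts (vertical axis, percent) in each HP-AKI library, with exact 95% binomial intervals as bars. The share runs from 25.1% in HP-AKI 12 to 47.2% in HP-AKI 9.

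Because the Sprr genes are close relatives, the transcripts were compared for stretches in which a read could be placed in a single gene. Of all 50-base windows of the GENCODE transcript, 99.3% occurred in no transcript of another gene for Sprr2f, and 100% did for Sprr2g, Sprr2h, Sprr1a, Sprr1b and Sprr3. The share was 95.7% for Sprr2d, 89.8% for Sprr2e and 86.3% for Sprr2b, and it reached 98.9% or more for every member with 100-base windows. Sprr2f and Sprr2g transcripts were 77.0% identical over 604 aligned bases, so this abundant pair could be told apart over stretches of 50 bases. Sprr2a1, Sprr2a2 and Sprr2a3, which are not among the members, had the lowest shares. Of their 50-base windows, 3.72% were unique for Sprr2a1, 0% to 3.55% for the Sprr2a2 transcripts and 38.9% to 52.6% for the Sprr2a3 transcripts. Read length and the handling of reads with several placements are not given in the sources used here, and mismatched or intronic reads were not covered by this comparison. For every 100 counts of Sprr2f and Sprr2g together, Sprr2h had 0.159 to 0.690 counts. Whether these few reads belong to Sprr2h or to its neighbours was not tested.

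Among the 8 Sprr rows outside the members, no gene came near the counts of the abundant 3. Sprr2a1 and Sprr2a2 overlap on the forward strand and few of their windows are unique. For the Sprr2a3 transcripts, 38.9% to 52.6% of 50-base windows were unique. Whether the counts of Sprr2a1, Sprr2a2 and Sprr2a3 understate their levels was not tested. Sprr2a1, Sprr2a2 and Sprr2a3 had 42, 61 and 98 counts in HP-AKI, against 27, 46 and 76 counts in sham. Sprr2a3 alone of the 8 passed the filter, and its log2 fold change of 0.36 ± 0.38 (SE) did not pass (adjusted p = 0.406, edgeR quasi-likelihood F-test). The pseudogene Sprr2c-ps had 4 counts in HP-AKI and 0 in sham. Sprr2j-ps and Sprr4 had 1 count each in HP-AKI and 0 in sham, and Sprr2i and Sprr2k had 0 counts in both groups.

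The other components of the cornified envelope changed in part. This list and those that follow were chosen with earlier results of these data known, so the numbers of genes called are a description only. Of 27 genes listed, 16 were tested and 11 of these were called higher in HP-AKI and 4 lower, with a median log2 fold change of 0.88, against 0.04 over all tested genes. The shares called over all tested genes were 37.7% higher and 35.1% lower. Cdsn, which encodes the adhesion protein corneodesmosin, rose to 0.637 ± 0.142 CPM in HP-AKI, against 0.0492 ± 0.0458 CPM in sham (SD, n = 6 each). With 11 counts in sham, Cdsn passed the filter through the HP-AKI libraries, so it had to differ and no p is given. Ivl, involucrin, a scaffold of the envelope, rose by 2.099 ± 0.402 (SE) on the log2 scale to 1.67 CPM in HP-AKI, against 0.379 CPM in sham. Cstb, the protease inhibitor cystatin B, rose by 2.18 ± 0.08 to 176 CPM in HP-AKI, against 38.9 CPM in sham. Tgm1, the transglutaminase that cross-links the envelope of keratinocytes, rose by 1.41 ± 0.25 and ran from 46.9 to 124.6 CPM in HP-AKI, against 13.1 to 38.7 CPM in sham, with the highest value in HP-AKI 12, the library lowest in Sprr reads. The widely expressed transglutaminase Tgm2 rose by 0.79 ± 0.14.

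The plakins that line the envelope moved apart. Ppl, periplakin, rose to 37.2 ± 6.32 CPM in HP-AKI, against 12.4 ± 2.62 CPM in sham, while Evpl, its partner envoplakin, fell to 2.93 ± 1.24 CPM in HP-AKI, against 8.35 ± 3.09 CPM in sham (SD, n = 6 each). Scel, sciellin, another envelope precursor, fell by 0.85 ± 0.21 (SE) on the log2 scale. Ecm1, extracellular matrix protein 1, had a log2 fold change of 0.39 ± 0.19 (adjusted p = 0.0757, edgeR) and did pass without sham 4 (0.50), without sham 5 (0.47) or with scaling by library size alone (0.50). Lor, loricrin, the main envelope protein of skin, had 38 counts in HP-AKI and 9 in sham and was not tested, and Flg, Flg2, Hrnr, Crnn and Cnfn had no count in any library.

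Of 13 S100 genes of the same chromosome region, 10 were tested and 9 were called higher, against 37.7% of all tested genes. Their median log2 fold change was 2.08. S100a8 and S100a9, which encode the subunits of the neutrophil protein calprotectin, rose by 5.47 ± 0.61 and 5.32 ± 0.54 (SE) on the log2 scale (adjusted p = 1.02e-06 and 3.63e-07, edgeR). HP-AKI 8 was the highest library in both, and without it the log2 fold changes were 4.78 and 4.675, so that the folds were 1.61 and 1.56 times smaller. S100a10, the annexin A2 partner, rose to 446 ± 47.3 CPM in HP-AKI, against 86.8 ± 4.45 CPM in sham, and S100a11, also an annexin partner and an envelope component, to 477 ± 55.0 CPM in HP-AKI, against 125 ± 10.6 CPM in sham (SD, n = 6 each). S100a1 did not pass, at -0.01 (adjusted p = 0.942, edgeR).

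Of 26 genes reported as regulators of Sprr genes or as parts of the IL-6 family pathway, 25 were tested. Of these, 20 were called higher and 2 lower, with a median log2 fold change of 2.39. Over all tested genes, 37.7% were called higher and 35.1% lower. The 2 called lower were Ovol1 (-1.08 ± 0.18, SE) and Lifr (-0.59 ± 0.10). Some that rose, such as Fosl1 and Il6 with 0 and 12 counts in sham, passed the filter through the HP-AKI libraries, so they had to differ. Fosl1, an AP-1 subunit, averaged 77.0 ± 12.1 CPM in HP-AKI, against 0 counts in sham, at least 5585-fold higher over the groups. Placing Fosl1 at this bound left the median at 2.39. The stress-induced factor Atf3 rose by 6.90 and the cytokine Il6 by 6.50 on the log2 scale. Stat3, which carries the Il6 signal to the nucleus, rose to 340.3 ± 47.8 CPM in HP-AKI, against 65.1 ± 8.45 CPM in sham (SD, n = 6 each). Socs3, a feedback inhibitor induced by STAT3, rose by 4.92 ± 0.16 and Klf4, a factor of epithelial differentiation, by 2.65 ± 0.15, while the shared receptor chain Il6st rose by 0.23 ± 0.07. The epithelial ETS factor Elf3 rose by 1.21 ± 0.17. The ETS factor Elf5 (-0.11), Grhl3 (-0.32) and Trp63 (-0.35), which act in stratified epithelia, did not pass (adjusted p = 0.757, 0.567 and 0.106, edgeR), although Trp63 did without HP-AKI 11 (-0.46). Whether any of these genes acts on the Sprr genes here was not tested.

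**Figure D4:**
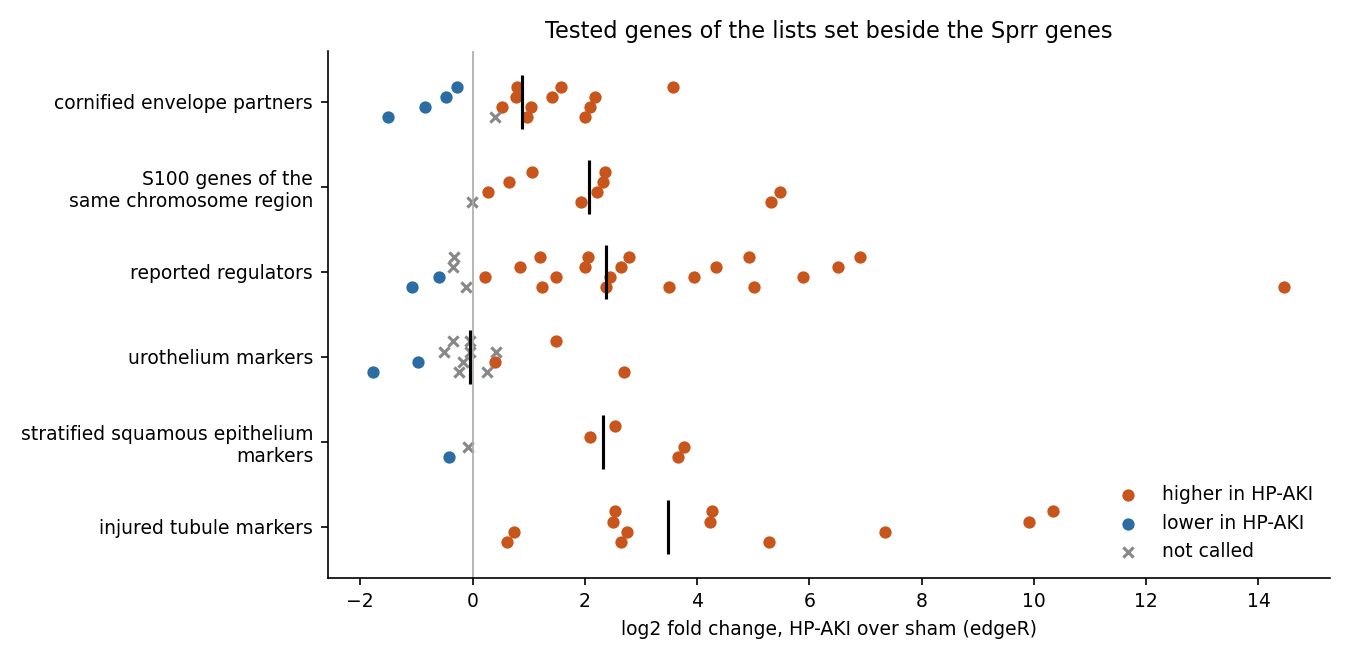
Log2 fold change of HP-AKI over sham (horizontal axis) of the tested genes of 6 lists, with 1 point per gene, crosses for genes that did not pass and a bar at each list's median. Urothelium markers centre on -0.05 and injured tubule markers on 3.49, and the point of Fosl1 at 14.46 depends on the fit's prior count because sham held no Fosl1 read.

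Sprr genes are also expressed in the urothelium of the renal pelvis and in squamous epithelia, so markers of these were read beside them. Of 14 urothelium markers, 13 were tested, 3 were called higher, 2 lower and 8 did not pass, with a median log2 fold change of -0.05. Among all tested genes, 37.7% were called higher and 35.1% lower. The number of urothelium markers called lower was 4 without HP-AKI 11 and 1 without HP-AKI 12 or without sham 4, 5 or 6. The 5 uroplakin genes of this list summed to 8.91 to 22.5 CPM in HP-AKI, against 9.67 to 24.4 CPM in sham, and the groups overlapped across almost their whole range. Upk1b supplied the largest part, with a mean of 8.70 CPM in HP-AKI and 6.47 CPM in sham. The part of urothelial cells in the Sprr reads of either group was not tested. Upk3a was the uroplakin that passed, lower in HP-AKI (-0.97, adjusted p = 0.0381, edgeR), but it missed the threshold without HP-AKI 8 or 12 or without sham 4, 5 or 6, nor with library-size scaling or limma-voom (-0.95 to -0.70). Upk1b (0.43) did not pass but did without HP-AKI 12 (0.55) or sham 6 (0.59). Krt5, a basal cell keratin of urothelium and skin, rose to 8.98 ± 2.53 CPM in HP-AKI, against 1.37 ± 0.816 CPM in sham, and Foxa1 to 2.56 ± 0.672 CPM in HP-AKI, against 0.918 ± 0.321 CPM in sham (SD, n = 6 each). Shh, a basal urothelial and collecting duct signal, fell by 1.77 ± 0.21 (SE) on the log2 scale. Gata3 (-0.24, adjusted p = 0.065, edgeR), the urothelial and collecting duct factor, did not pass. The remaining called rise, that of Pparg (0.40), did not pass without HP-AKI 9 or 12, without sham 1 or 3 or with no filter (0.33 to 0.37).

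Of 15 squamous epithelium markers only 6 were tested, 4 higher and 1 lower, against 37.7% higher and 35.1% lower over all tested genes. The list summed to 9.47 to 13.4 CPM in HP-AKI, against 6.66 to 10.3 CPM in sham. Krt4, Krt14 and Col17a1 rose to 1.08 ± 0.381, 1.18 ± 0.388 and 0.795 ± 0.240 CPM in HP-AKI, against 0.0807 ± 0.0673, 0.198 ± 0.0932 and 0.0544 ± 0.0335 CPM in sham (SD, n = 6 each). With 18, 44 and 12 counts in sham, these genes passed the filter through the HP-AKI libraries, so they had to differ. Krt10, the suprabasal keratin of skin, fell by 0.42 on the log2 scale, and Pkp1, a desmosomal plakophilin, did not pass (-0.09, adjusted p = 0.864, edgeR). Krt1, the partner of Krt10 in skin, had 0 to 0.0292 CPM in HP-AKI, against 0 to 0.0609 CPM in sham. With no filter 9 of these markers were called higher, and with a filter of 1 CPM in 6 samples 1 was. The share of these few markers' cells in the Sprr reads was not tested. All 12 injured tubule markers were called higher, against 37.7% of all tested genes, with a median log2 fold change of 3.49. This list too was chosen with earlier results of these data known, so the number called is a description only. Krt20 (10.34), a keratin of injured tubules, and Lcn2 (9.90), the siderophore-binding protein NGAL, rose most. Havcr1 (7.36), kidney injury molecule 1, and Spp1 (4.23), osteopontin, also rose. Vcam1 (0.62) did not pass without HP-AKI 7 (0.50), without HP-AKI 8 (0.42) or without HP-AKI 8, sham 1 and sham 2 (0.47).

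In sham, the level of Sprr1a followed that of the uroplakins. Sham 6 was highest in both, with 3.56 CPM of Sprr1a and 24.4 CPM of uroplakins, and sham 2 and 3 were lowest in both. Pearson r was 0.946 (exact permutation p = 0.00417, adjusted 0.0208 over 5 relations) and Spearman rho 0.943 (exact permutation p = 0.0167, adjusted 0.0833), over 6 libraries, and r was 0.970 without sham 6 and 2. In HP-AKI the same relation gave an r of 0.49 (exact permutation p = 0.338, adjusted 0.422) and a rho of 0.257 (exact permutation p = 0.658, adjusted 0.803), and r was -0.14 without HP-AKI 12 and 11. The uroplakins and the combined Sprr2f and Sprr2g level in HP-AKI gave an r of 0.343 (exact permutation p = 0.499, adjusted 0.499) and a rho of 0.20 (exact permutation p = 0.714, adjusted 0.803), and an r of -0.08 without HP-AKI 12 and 11. These relations were chosen after the values were seen, so their p-values are a description only, and the difference between the sham and HP-AKI relations was not tested.

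**Figure D5:**
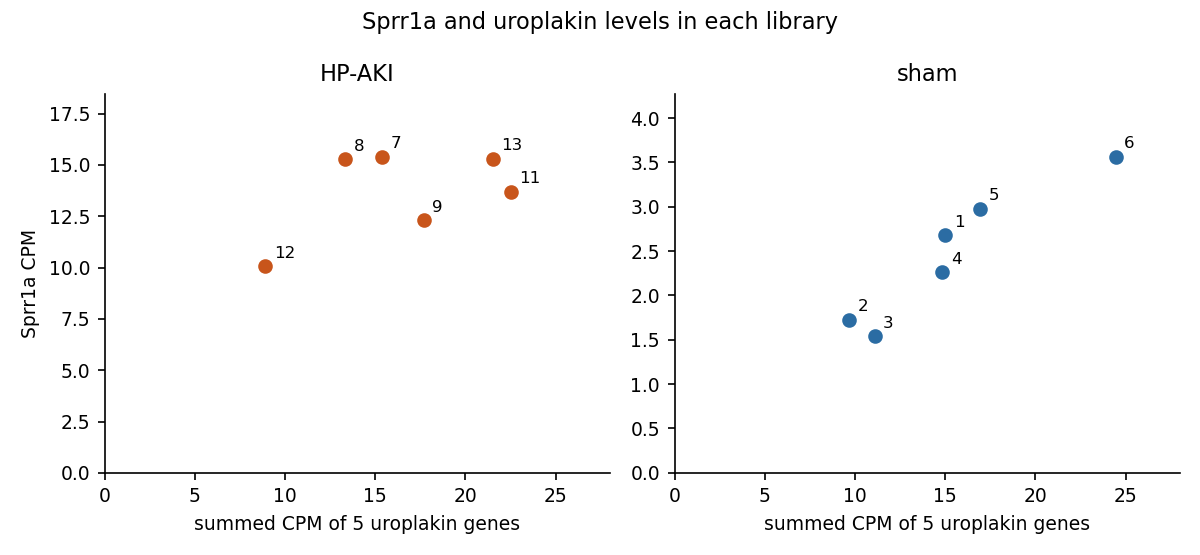
Sprr1a level (vertical axes, CPM, scaled separately) against the summed level of 5 uroplakin genes (horizontal axes, CPM) in HP-AKI and in sham, with 1 numbered point per library. Sprr1a spans 10.1 to 15.4 CPM in HP-AKI and 1.54 to 3.56 CPM in sham, over similar uroplakin levels.

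The genes whose levels across the 6 HP-AKI libraries were most like the sum of the 9 members were Itga2, Nav1, Ubqln1, Atp8a1 and Fam129a. Likeness was the Pearson r of log2(CPM + 0.1), searched over the 11464 tested genes that averaged 5 CPM or more in HP-AKI, and it ran from 0.965 for Fam129a to 0.995 for Itga2. As 81 genes reached an r of 0.9 and the 5 are the highest of the search, no p is given. Whether more genes reached this r over 6 libraries than chance would give was not tested. Itga2, the collagen-binding integrin alpha 2 subunit, ranged 3.14 to 15.1 CPM in HP-AKI, the widest relative range of the 5, and averaged 9.45 ± 4.32 CPM in HP-AKI, against 2.29 ± 1.24 CPM in sham (SD, n = 6 each). Ubqln1, ubiquilin 1, ranged 232 to 254 CPM in HP-AKI, so its likeness concerns the order of the libraries and not the size of the change. In the comparison of the groups Itga2, Nav1, Ubqln1 and Fam129a were higher in HP-AKI, with log2 fold changes of 2.04, 0.89, 0.48 and 1.98, and Atp8a1, a phospholipid flippase, was lower (-0.41, adjusted p = 0.00414, edgeR).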

How the data were processed

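Messenger RNA of 12 mouse kidney samples, 6 HP-AKI and 6 sham, was deposited as 1 table with a count and an RPKM column per sample. Per the labels, extraction used Trizol with a Qiagen kit, and library preparation a TruSeq kit. Per the submitters' processing notes, GRCm38, featureCounts, edgeR and TopHat2 2.1.0 were used, with no settings given. The deposited counts are whole reads per gene, not normalized by the authors. For RPKM, the authors divided by the listed length in kilobases and by a sample total 2.98 to 3.47 times the sum of the counts, and they served only as an alternative. Columns were matched to samples by title.

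In R 4.3.3, edgeR 4.0.16 compared the counts of both groups after filterByExpr and TMM scaling, by its two-sided quasi-likelihood F-test and Benjamini-Hochberg adjustment over 17470 genes. Each SE was derived from the log2 fold change and its F statistic. Group CPM pooled the counts of a group, and folds against a group without counts used a floor of 3 counts over the group. Intervals and floors cover counting error only. Library pairs within a group differed beyond sampling noise (mean chi-square per gene 9.67 to 126 over 30 pairs). The edgeR steps were tested on simulated counts in which few genes changed, with rises and falls equally likely. Most tested genes were called in the data, a setting that this simulation did not cover.

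Annotation and transcripts came from GENCODE vM21, whose coordinates and lengths matched the table for 17 of 17 Sprr rows, and promoters from RefSeq. Python 3.11.15 with pandas 2.3.3, scipy 1.17.1, biopython 1.88 and matplotlib 3.10.9 was used. Alternatives were RLE, upper-quartile and library-size scaling, 2 filters, DESeq2 1.42.0, limma-voom 3.58.1, each library left out, and HP-AKI 8, sham 1 and sham 2 left out. The members and 7 gene lists were chosen with earlier results of these data known. The text names all Sprr rows, from each list the 3 called genes of largest change, the most abundant gene and, where 4 or fewer did not pass, those, and the 5 genes most like the sum of the members. Other list genes were named after their values were seen. 1 gene of the kidney identity list is not reported here.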

Additional observations from a re-analysis of the deposited data

Results flagged for a closer look

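In 92 groups of 6 libraries, 7 had a library that stood apart from the other 5 by a gap of over 0.625 of the group's range, and chance gives about 1 in 20. S100a8 and S100a9 were highest in HP-AKI 8, at 55.5 and 71.9 CPM, against 5.47 to 18.3 and 7.84 to 25.9 CPM in the other HP-AKI libraries. HP-AKI 8 also had the highest Sprr2g value and the lowest Cstb value, 143.4 CPM against 174 to 190 CPM in the others. Foxa1 was lowest in HP-AKI 12, at 1.22 CPM against 2.63 to 3.02 CPM in the others, the library in which Sprr2f, Sprr2g, Sprr1a and the uroplakins were also lowest. Sprr2a1 stood highest in HP-AKI 11, at 0.277 CPM against 0.146 to 0.184 CPM. Pkp1, a desmosomal plakophilin, was lowest in HP-AKI 7, at 0.0292 CPM against 0.294 to 0.396 CPM. S100a10 was lowest in sham 4, at 78.4 CPM against 86.4 to 91.1 CPM in the other sham libraries.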

How the results depend on the processing

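Over 20 alternatives the number of genes called higher in HP-AKI ran from 5761 to 7546 and of genes called lower from 5402 to 7087. The numbers of list genes called higher stayed within 1.5 times for 5 lists, while squamous markers called higher were 9 with no filter and 1 with a filter of 1 CPM in 6 samples, which tests other genes. Among numbers called lower, urothelium markers ran from 0 to 4, against 2, and moved in 8 of 20 alternatives, and S100 genes went to 1 with no filter, against 0. The summed Sprr level in HP-AKI ran from 59.1 to 70.0 CPM. With library-size scaling the median over all tested genes was 0.16, against 0.04 with TMM. The signs of 3 genes that never passed turned. S100a1 was 0.10 with library size only, 0.00156 with limma-voom, and -0.11 to 0.04 with single libraries left out (positive without HP-AKI 8 or sham 4, 5 or 6: 0.0229, 0.0178, 0.0406 and 0.0122). Elf5 was 0.0135 with library size only and -0.28 to 0.04 with single libraries left out (positive without HP-AKI 12 or sham 1: 0.0157 and 0.0381). Pkp1 was 0.0379 with library size only, 0.16 without HP-AKI 8, sham 1 and sham 2, and -0.27 to 0.19 with single libraries left out (positive without HP-AKI 7 or sham 2: 0.13 and 0.19). The cause was not tested. Gata3 (-0.24) passed in 6 alternatives. The authors' deposited RPKM gave 15.1, 10.8 and 5.57 for Sprr2g, Sprr2f and Sprr1a in HP-AKI, in the same order. No paired analysis was possible because the groups share no replicate number. Depth limits Sprr2b, Sprr2d and Sprr2e, which had 0 to 4 counts in each library.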
